A study of Mus musculus with 25 samples.

Results

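Pachytene spermatocytes were picked out of Drop-seq libraries of whole mouse testis, in which each barcode stands for a droplet that held 1 cell or more and expression is given as a count of unique molecular identifiers (UMIs) per gene. The 958 barcodes described here were chosen by their own measured UMIs, from the 15 libraries of the 3 groups in which cells pass through meiosis and make spermatids. A barcode entered if it held at least 500 UMIs and at least 3 UMIs summed over 7 genes used to mark pachytene cells (Piwil1, Psma8, Mtl5, Tex101, Pou5f2, Tdrd1 and Gml), if these made up at least 0.2% of its UMIs, if 6 genes of the meiotic divisions (Ccna1, Plk1, Aurka, Ccnb1, Kif23 and Spc25) made up less than 0.2%, and if the protamine and transition protein genes Prm1, Prm2, Tnp1 and Tnp2 made up less than 1%. They were 958 of the 23381 barcodes with at least 500 UMIs in these libraries, of 36240 barcodes in the same libraries and of 48642 in the 25 libraries of the series.

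The wild-type group (WT) had 11 libraries of C57BL/6 mice aged between 3 months 1 day and 9 months 14 days. The Cul4a group had 2 libraries of Cul4a-/- mice on a mixed B6;129 background, aged 1 month 18 days and 1 month 21 days. The CNP group had 2 libraries of C57BL/6 mice that carry an eGFP transgene built for translating ribosome affinity purification on a bacterial artificial chromosome with Cnp (labelled CNP eGFP BAC TRAP), aged 2 months 14 days and 2 months 16 days. WT libraries 1 and 2 were dissociated with enzymes and the other 13 mechanically, and WT libraries 1 and 3 were read on a MiSeq, the rest on a HiSeq. The ages in the study's own sample list are exchanged between the Cul4a and CNP mice relative to the labels used here, so the ages of these 2 groups are uncertain. The Cul4a mice differed from WT in genotype, strain, labelled age and sequencing depth together, and these cannot be told apart in any Cul4a comparison below. The CNP mice had the strain label of WT. Their labelled ages were below every WT age, and their pachytene barcodes were shallower at the median than in each WT library that was fitted. Transgene, labelled age and depth cannot be told apart in any CNP comparison below.

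Pachytene is the long middle stage of the first meiotic prophase, in which homologous chromosomes are held together along their length by the synaptonemal complex and breaks in DNA are repaired as crossovers. In male mammals the X and Y chromosomes, which pair over only a short stretch, are shut off at this stage and packed into a sex body, a process called meiotic sex chromosome inactivation. Pachytene cells also make many RNAs ahead of need, among them precursors of pachytene piRNAs and messengers for the sperm tail and energy supply, much of it under the transcription factor A-MYB (Mybl1).

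Promoters are shown for 3 genes that the description returns to, because A-MYB is known to act in these cells: Piwil1, which encodes a PIWI protein that binds pachytene piRNAs, Ldhc, the lactate dehydrogenase of germ cells, and Sycp1, of the central filaments of the synaptonemal complex. Each is the stretch from 250 bases before to 50 bases after an annotated start in RefSeq on GRCm38.p6, printed on the strand of the gene. Capitals mark every match to the core of the MYB motif, CNGTTA on either strand.
Piwil1, chr5:128735996-128736295, plus strand: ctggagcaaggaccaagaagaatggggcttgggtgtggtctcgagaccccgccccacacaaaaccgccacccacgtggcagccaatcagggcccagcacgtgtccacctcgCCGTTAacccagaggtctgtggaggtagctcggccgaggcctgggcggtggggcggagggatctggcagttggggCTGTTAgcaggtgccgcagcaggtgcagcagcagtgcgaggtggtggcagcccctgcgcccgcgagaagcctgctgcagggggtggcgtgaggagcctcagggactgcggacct
Ldhc, first annotated start, chr7:46861013-46861312, plus strand: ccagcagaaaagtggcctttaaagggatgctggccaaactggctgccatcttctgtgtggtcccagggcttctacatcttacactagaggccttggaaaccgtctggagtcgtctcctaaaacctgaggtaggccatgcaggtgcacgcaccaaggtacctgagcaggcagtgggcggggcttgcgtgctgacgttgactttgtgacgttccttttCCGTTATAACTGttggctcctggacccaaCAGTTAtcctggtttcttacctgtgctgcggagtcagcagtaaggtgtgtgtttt
Sycp1, chr3:102936051-102936350, minus strand: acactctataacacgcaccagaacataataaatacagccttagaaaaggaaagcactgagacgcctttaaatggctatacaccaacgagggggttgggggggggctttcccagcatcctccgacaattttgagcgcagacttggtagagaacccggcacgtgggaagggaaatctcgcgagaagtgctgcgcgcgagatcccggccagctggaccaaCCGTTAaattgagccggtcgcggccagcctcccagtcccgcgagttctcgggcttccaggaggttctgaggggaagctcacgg

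Piwil1 held 2 matches, whose first bases lay 139 and 64 bases before the start. Ldhc held 3, at 34, 28 and 5 bases before it, the first pair lying side by side on opposite strands. Sycp1 held 1, at 33 bases before. Of the 30 genes looked up (the 7 marker genes of the rule and others of the pachytene and leading gene lists), 21 matched an entry of the promoter table and 10 of them held the motif in at least 1 promoter, beside 25.9% of all 27025 genes in the table and 23.3% of its 32851 promoters. The full cyclic AMP response element, TGACGTCA, was in 0 of the 21 and in 2.03% of all genes. A match is a run of letters and not a measured binding site.

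The 958 barcodes fell into 431 from WT, 422 from Cul4a and 105 from CNP. WT library 1 gave 0 and WT library 2 gave 3, while the other 9 WT libraries gave 31 to 67 each, the Cul4a libraries 243 and 179, and the CNP libraries 30 and 75. No barcode sequence was shared between any of the 105 pairs of libraries. The median barcode held 2284.5 UMIs, with a range of 502 to 38153. Cul4a barcodes were the deepest, at medians of 3559 and 4264 UMIs, against 1459 to 2848 in WT libraries 3 to 11 and 1070 and 1068 in the CNP libraries. Levels below are given per library after summing the UMIs of its pachytene barcodes, over the 13 libraries with at least 10 of them. These sums ran from 52193 UMIs (CNP 1) to 1323191 (Cul4a 1), with 72331 to 207878 in the 9 WT libraries.

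At the edges of the rule the barcodes changed gradually, which is given as a description since the rule set these edges. The 92 barcodes with exactly 3 marker UMIs had 3.41% of their UMIs in 21 pachytene genes outside the rule, against 3.03% in the 97 that had 2 and otherwise met it. The 126 with a marker share of 0.2 to 0.25% had 3.78%, and the 138 just below, at 0.15 to 0.2%, had 3.72%. On the division side, 73 barcodes at 0.1 to 0.2% had 3.48% and the 17 at 0.2 to 0.3% had 3.30%. On the spermatid side, 164 barcodes at 0.5 to 1% had 2.82% and X-linked UMIs equal to 0.675% of autosomal ones, against 2.33% and 1.302% in the 97 at 1 to 1.5%.

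Among the genes of the rule, Tex101, a surface protein of germ cells, and Piwil1 gave most of the marker UMIs, 26.3% and 24.7% of them. They were followed by Mtl5 (Tesmin, 17.1%), Psma8 (the testis proteasome subunit, 15.6%), Tdrd1 (a Tudor protein of the piRNA pathway, 6.76%), Gml (6.45%) and Pou5f2 (3.08%). Piwil1 stood at a median of 1114 CPM (UMIs of the gene scaled to a library total of 1000000) over the 13 libraries, with a range of 718 to 1399, and Tex101 at 925, with a range of 579 to 2299. These are the values that chose the barcodes and say nothing beyond the rule.

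The same barcodes were then described by genes the rule did not use, always against all other barcodes of the same library with at least 500 UMIs. They were also set against 810 barcodes of the meiotic divisions, taken by the mirrored rule. Barcodes past the protamine limit, the spermatids, ranged from 15.5% (CNP library 2) to 83.1% (WT library 5) of those with at least 500 UMIs. The make-up of the other barcodes thus differed between libraries. No test goes with the contrasts to the other and the division barcodes, since every gene of the chosen barcodes shares their selection. The 20 genes with the highest ratio to the other barcodes were all higher in 13 of 13 libraries, against the other barcodes and against the division barcodes alike. 3 proteins of the axes and central filaments of the synaptonemal complex were among them: Sycp1 at a median of 1096 CPM against 177 in the other barcodes, Sycp2 at 1509 against 286, and Sycp3 at 1155 against 199. Calm2, which encodes calmodulin, stood at 3567 CPM against 537.

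Other genes of the 20 have roles outside the synaptonemal complex. Hnrnpa2b1, an RNA-binding protein of the nucleus, stood at 1410 CPM against 224. Mllt10, a cofactor of the histone methyltransferase DOT1L, stood at 1708 against 303, and Mphosph8, a chromodomain protein of the HUSH silencing complex, at 920 against 143. Cbx1, which encodes a heterochromatin protein, stood at 288 CPM against 38.7. Fbxo3 had the highest ratio of medians among the 20, 9.998, at 224 CPM against 22.4. Dut, the enzyme that clears dUTP, had a ratio of 8.57, Anp32b, a histone chaperone, 8.52, and mt-Cytb, a mitochondrial gene of the respiratory chain, 8.04. The summed list of mitochondrial genes did not follow mt-Cytb, at 0.792% of pachytene UMIs against 0.876% and higher in 5 of 13 libraries, while mt-Rnr2, a mitochondrial ribosomal RNA, stood at 2848 CPM against 7866.

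**Figure D1:**
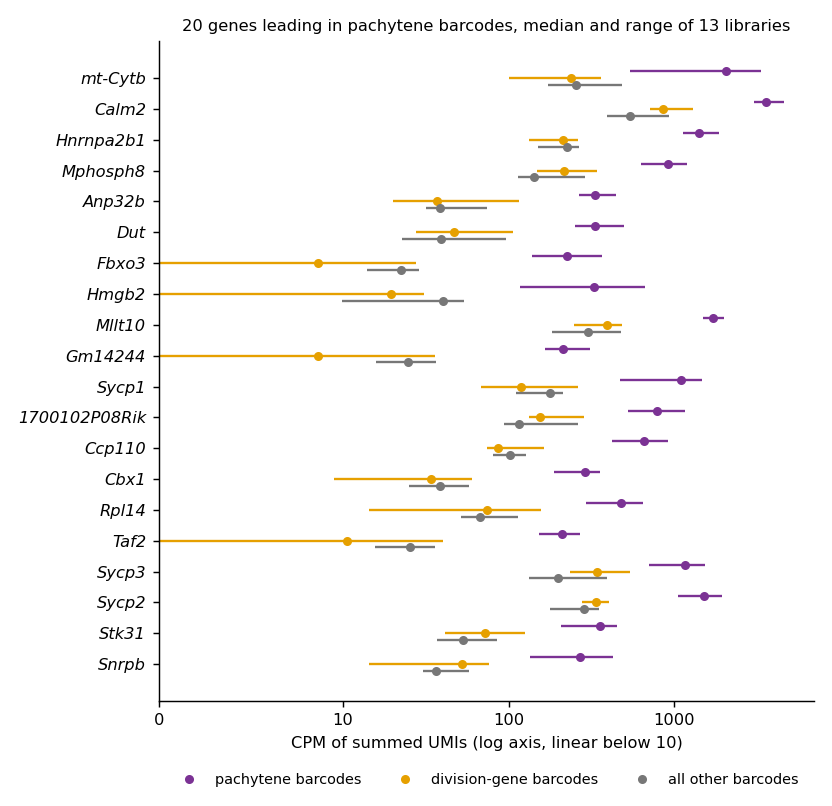
CPM of the 20 leading genes on a log axis that is linear below 10, as the median (point) and range (bar) over 13 libraries, in pachytene barcodes (purple), division-gene barcodes (orange) and all other barcodes (grey). All 20 genes were higher in pachytene barcodes in 13 of 13 libraries, for example Sycp1 at a median of 1096 against 177 in the other barcodes.

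Genes of the chromosome axis and of recombination were high as groups. The 13 genes of the synaptonemal complex and cohesin made up 0.571% of pachytene UMIs at the median library (0.438 to 0.654%) and 0.245% in the other barcodes, higher in 13 of 13 libraries. Within this group Rec8, the meiotic cohesin subunit, stood apart, at a median of 0 CPM against 41.2 in the other barcodes and higher in 0 of 13 libraries, while Smc1b stood at 571 against 418. The 16 genes of break formation and strand exchange that were found took 0.134% against 0.0571%. Spo11, which makes the breaks, stood at 197 CPM against 57.8, and Psmc3ip (Hop2), a helper of strand exchange, at 664 against 318. Dmc1, the recombinase that loads early, was at a median of 0.

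The 13 genes of crossover formation and mismatch repair had the largest group ratio of the recombination lists, 0.0718% against 0.0203%, and were higher in 13 of 13 libraries. Hfm1, a helicase needed for crossovers, stood at 127 CPM against 21.4 and Mlh3, a mismatch repair protein that acts at crossovers, at 174 against 37.1. Ccnb1ip1 (HEI10), a ligase that sets which sites become crossovers, stood at 48.5 CPM against 3.11. These genes were also higher than in the division barcodes, where the group took 0.0305%.

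The 19 genes of the piRNA pathway took 0.534% against 0.354%, and their spread showed 2 kinds of pattern. Tdrd5 (186 CPM against 24.8), Tdrd12 (239 against 56.9), Fkbp6 (106 against 15.1) and Tdrd9 (115 against 30.4), all factors of piRNA production, were several times higher than in the other barcodes. Mael stood at 1511 CPM against 1094 and Ddx4 (the mouse Vasa) at 597 against 360, closer to the other barcodes although both were higher in 13 of 13 libraries. Mybl1, the gene of A-MYB, stood at 165 CPM against 66.8 and at 159 in the division barcodes.

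The 21 pachytene markers outside the rule made up 3.48% of pachytene UMIs at the median library (3.12 to 4.27%), against 2.42% in the other barcodes and 3.28% in the division barcodes. They were higher in 13 of 13 and in 10 of 13 libraries. Several of them were abundant in the other and the division barcodes too. Ldhc stood at 9302 CPM, with a range of 7798 to 11270.0, against 7569 in the other barcodes and 9909 in the division barcodes. Lyar stood at 5185 CPM against 3243, Clgn, an endoplasmic reticulum chaperone, at 1783 against 1414, and Hspa2, the testis HSP70, at 1163 against 727. Meig1 did not separate the barcodes, at 4557 CPM against 4278, higher in 7 of 13 libraries.

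Messengers for the sperm tail were already present. The 15 cilium and axoneme genes took 1.85% of pachytene UMIs, 1.45% in the other barcodes and 2.05% in the division barcodes. Rsph1, a radial spoke protein, stood at 4571 CPM against 1772 in the other barcodes, while Ropn1l was level at 3013 against 3036. The 13 genes of glycolysis and energy supply took 1.99% against 1.65%, higher in 12 of 13 libraries. The 16 chaperones took 1.55% against 1.19%, the 15 calmodulin and cell cycle genes 2.16% against 1.28%, the 14 genes of translation and RNA storage 1.81% against 1.35%, and the 22 proteasome genes 0.575% against 0.452%. The 13 testis histone and chromatin genes took 0.243% against 0.210%. Against the division barcodes, the energy genes (1.94% there) were higher in 7 of 13 libraries, the chaperones (1.60%) in 5 and the translation genes (1.81%) in 6. The calmodulin and cell cycle genes (1.99%) were higher in 10, and the proteasome (0.495%) and histone genes (0.114%) in 13. The cilium genes were higher in 1 of 13. The 17 apoptosis and damage genes did not separate the barcodes, at 0.0299% against 0.0279%, higher in 9 of 13 libraries.

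Genes of the silencing response took 0.302% against 0.188%, higher in 13 of 13 libraries. The polyubiquitin gene Ubb is in this list of 13 genes and made up much of its sum. In WT library 3, its highest, Ubb stood at 2868 CPM (scaled as in the comparisons below), where the list took 0.442% of UMIs. Atr, the kinase that drives silencing of the sex chromosomes, stood at 224 CPM against 62.9. Mdc1, which spreads the damage mark along them, stood at 141 against 30.5, Topbp1, an activator of ATR, at 105 against 15.2, H2afx, the histone that carries the mark, at 182 against 39.6, and Setdb1, a histone methyltransferase, at 73.9 against 19.0.

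Markers of spermatids and of somatic cells took smaller shares than in the other barcodes. The 12 round spermatid markers took 0.0291% of pachytene UMIs against 0.334% in the other barcodes, and the 10 elongating spermatid markers 0.212% against 1.66%, both higher in 0 of 13 libraries. The 9 leptotene and zygotene markers went the other way, at 0.0295% against 0.0172% in the other barcodes (higher in 11 of 13 libraries) and 0.00946% in the division barcodes (higher in 13 of 13). The 10 spermatogonia markers took 0.00242% against 0.00325%, higher in 5 of 13 libraries. The 11 Sertoli markers found took 0.0192% against 0.0354%, the 7 Leydig markers 0.00383% against 0.0140%, the 12 macrophage and blood markers 0.000808% against 0.00282% and the 9 telocyte and peritubular markers 0.000623% against 0.00219%. The division barcodes had less of some of these: Sertoli markers (0.0122% there) were higher in pachytene barcodes in 11 of 13 libraries, Leydig (0.00279%) and spermatogonia markers (0.00105%) in 9 each. Macrophage and blood markers were higher than there in 6, telocyte and peritubular markers in 5, elongating spermatid markers in 2 and round spermatid markers in 1. Of the macrophage and blood markers Cd68, Hba-a2 and Hbb-bt were at 0 UMIs in every pachytene barcode, as were Col1a1 and Des of the telocyte and peritubular list. A FACS-sorted library labelled as primary spermatocytes had 10 of 34 barcodes with at least 500 UMIs that met the rule, 29.4% (exact 95% interval 15.1 to 47.5%). That library and the other sorted ones came from C57BL/6 mice aged 2 months 21 days by mechanical dissociation, except the sorted spermatogonia, dissociated with enzymes from mice 7 days old. For these the labels give the genotype Pouf51-EGFP on C57BL/6, while the methods name a Pou5f1-EGFP reporter line on B6;CBA and pooled testes. The sorted spermatogonia gave 5 of 292, the sorted spermatids 1 of 100, and the sorted secondary spermatocytes 0 of 65, where 3 counts would be 4.62% and the exact 95% upper limit is 5.52%. These limits cover counting error only.

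X-linked genes, none of which is in the rule, were nearly silent in the pachytene barcodes. X-linked UMIs were equal to 0.151% of autosomal UMIs at the median library (0.101 to 0.274%), against 0.305% in the division barcodes and 1.195% in the other barcodes. The ratio of medians to the other barcodes was 0.126 for the X and 0.0736 for the Y, and it lay between 0.544 and 1.204 for the autosomes. The lowest autosome was chromosome 16, which carries Prm1, Prm2 and Tnp2, genes the rule kept low, and the highest was chromosome 15. The highest pachytene library, at 0.274%, was below the lowest library of the other barcodes, at 0.947%.

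**Figure D2:**
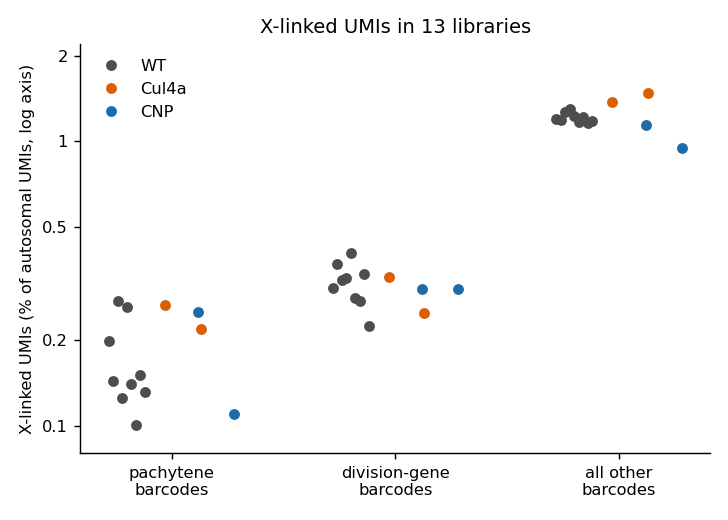
X-linked UMIs as a percentage of autosomal UMIs (log axis) in pachytene, division-gene and all other barcodes, 1 point per library and kind of barcode for 9 WT, 2 Cul4a and 2 CNP libraries. The pachytene points lie between 0.101 and 0.274%, below every point of the other barcodes, the lowest of which is 0.947%.

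Of 1630 X-linked symbols in the files, 813 had at least 1 UMI in a pachytene barcode, and together they held 8163 UMIs. Only 2 X-linked genes averaged at least 50 CPM, against 3888 autosomal genes, and the 10 most abundant of those fitted held 22.3% of the X-linked UMIs. Akap4, a scaffold of the sperm tail sheath, stood at a median of 68.2 CPM against 774 in the other barcodes, and Tsga8 at 60.6 against 604. H2afb1, a histone variant of spermatids, stood at 39.8 against 558 and Prdx4, a peroxiredoxin, at 28.9 against 302. Cypt1 (24.9 against 382), Cypt3 (23.6 against 242), Tspan6 (16.2 against 170) and Tmsb4x (24.9 against 61.3) were lower too. These genes are known from spermatids or somatic cells, and 8 of the 10 named here were higher than in the other barcodes in 0 of 13 libraries.

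Ndufa1, a subunit of respiratory complex I, went the other way, at a median of 37.9 CPM against 16.7, higher in 11 of 13 libraries. So did the pseudogene Rps24-ps3, at 24.2 against 17.5, higher in 9 of 13. Reads of a ribosomal protein pseudogene can come from its parent or from other copies, so its position on the X is uncertain as the source of these UMIs.

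Many X-linked housekeeping genes have autosomal retrocopies that are used in germ cells, and the UMIs of the pairs were far apart. Pgk1, of glycolysis, and Pdha1, of pyruvate dehydrogenase, had 0 UMIs in all 958 barcodes, while their copies Pgk2 and Pdha2 had 654 and 1984. Rpl10 had 18 UMIs and Rpl10l 2113, Rpl39 had 25 and Rpl39l 3696, and Rps4x had 9 and Rps4l 1511. Cox7b had 12 and Cox7b2 6392, and Cetn2 had 14 and Cetn1 4704. The pairs Cstf2 and Cstf2t (17 and 187) and Utp14a and Utp14b (11 and 70) were less far apart. The copies were not all highest at this stage: Pdha2 stood at 513 CPM against 278 in the other barcodes and was higher in 13 of 13 libraries, whereas Pgk2 stood at 178 against 993 and was higher in 0 of 13. The whole group of 18 copies took 0.647% of pachytene UMIs against 0.627%, while the 16 X-linked parents found took 0.00289% against 0.0166%. In the division barcodes the copies took 0.737%, and the pachytene share was higher in 0 of 13 libraries. The parents took 0.00434% there, and the pachytene share was higher in 3 of 13.

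The Cullin 4 genes split in the same way. Cul4a, on chromosome 8, encodes the scaffold of a ubiquitin ligase and stood at a median of 144 CPM against 27.9 in the other barcodes, higher in 13 of 13 libraries. Its X-linked relative Cul4b stood at 7.58 CPM against 53.0, higher in 0 of 13. The 16 genes of the ligase took 0.185% of pachytene UMIs against 0.0912%.

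The barcodes differed among themselves in the measured X-linked share, of which counting error is a part, since most held few X-linked UMIs. The quartiles of the X-linked share per barcode were 0.0727, 0.138 and 0.264% of autosomal UMIs, 94 barcodes had no X-linked UMI, and the highest value was 3.94%. A group of 50 barcodes had a share of at least 1%. They came from 12 libraries, with 24 from Cul4a, 24 from WT and 2 from CNP, and the highest share in a library of the fit was 7 of 31 in WT 5. Their median depth was 1444 UMIs against 2338 for the other 908.

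Summed over barcodes, those 50 looked different in other genes. Leptotene and zygotene markers took 0.276% of their UMIs against 0.0257% in the other 908, and the synaptonemal complex and cohesin genes 1.197% against 0.556%. The 21 pachytene markers outside the rule took 1.85% against 3.55%, the energy genes 0.834% against 2.196% and the cilium genes 0.653% against 1.83%. Spermatogonia markers (0.0759% against 0.00419%), Leydig markers (0.102% against 0.00451%), Sertoli markers (0.0884% against 0.0227%) and elongating spermatid markers (0.419% against 0.206%) were higher as well, as were mitochondrial UMIs (1.90% of autosomal against 0.823%). Whether these barcodes are earlier cells, mixed droplets or both was not tested.

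**Figure D3:**
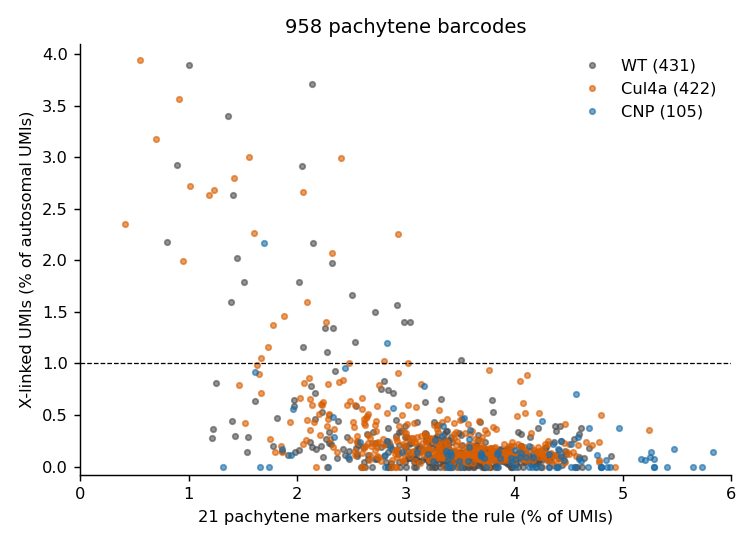
X-linked UMIs (% of autosomal UMIs) against the share of 21 pachytene markers outside the rule (% of UMIs) for each of the 958 pachytene barcodes, coloured by group. Above the dashed line at 1% lie 50 barcodes, most of them at low marker shares, and the median barcode is at 0.138% and 3.47%.

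The groups were compared by the share of barcodes with at least 500 UMIs that met the rule. That share is set by the rule's own genes, so it can move with their level as well as with the number of cells, and these cannot be told apart. In WT this share was 0% at the lowest, 2.23% at the median and 5.81% at the highest of 11 libraries. It was 8.79 and 6.05% in the Cul4a libraries and 9.68 and 17.9% in the CNP libraries, and both mutant groups lay above every WT library. The mean was 2.67% ± 1.87 (SD, n = 11) in WT, higher by 4.75 percentage points in Cul4a and by 11.1 in CNP, with an exact two-sided permutation p = 0.0256 for each, which is the smallest that 2 libraries against 11 allow (adjusted p = 0.0427 over the 5 permutation tests made). Within the mechanically dissociated HiSeq libraries the differences were 4.59 and 10.9 points (exact permutation p = 0.0444 for each).

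**Figure D4:**
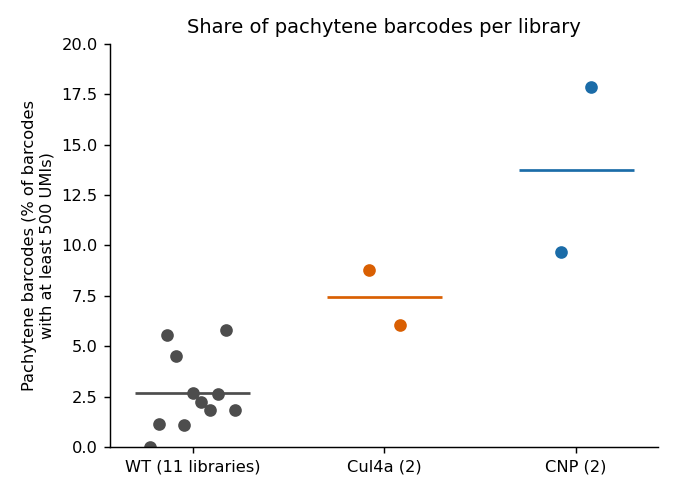
Pachytene barcodes as a percentage of barcodes with at least 500 UMIs, 1 point per library, with a line at the group mean. The 11 WT libraries lie between 0 and 5.81%, the Cul4a libraries at 8.79 and 6.05% and the CNP libraries at 9.68 and 17.9%.

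These shares depend on what else is in the denominator. In the CNP libraries only 310 of 992 and 420 of 3389 barcodes reached 500 UMIs, and over all barcodes the CNP share was 3.02 and 2.21%, against 0 to 2.48% in WT, where the difference was 1.16 percentage points (exact permutation p = 0.0769). Barcodes past the protamine limit, the spermatids, were 40.3 and 15.5% of those with at least 500 UMIs in CNP and 64.3 and 69.5% in Cul4a, against 44.4 to 83.1% in WT. When every barcode was thinned to 500 UMIs before the rule, the shares were 3.76 and 2.47% in Cul4a and 4.84 and 7.62% in CNP against 0.375 to 2.46% in WT, so that the lower Cul4a library barely cleared the highest WT library. More pachytene cells and fewer other cells cannot be told apart from shares, nor, in summed counts, a change in cell number from one in RNA per cell.

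The X-linked share of the pachytene barcodes did not separate the groups. It was 0.101% at the lowest, 0.144% at the median and 0.274% at the highest of the 9 WT libraries, 0.265 and 0.219% in Cul4a, and 0.251 and 0.110% in CNP. All 4 mutant libraries lay within the WT range. The differences were 0.0725 points in Cul4a (exact permutation p = 0.182, adjusted p = 0.227) and 0.0113 in CNP (exact permutation p = 0.945, adjusted p = 0.945), which does not show that they are equal, since the smallest possible p was 0.0364. The CNP difference changed sign without CNP library 1 (-0.0592) and with barcodes thinned to 500 UMIs (-0.0399).

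The 1509 barcodes of Mlh3-/- testes (B6;129, 6 libraries, mechanically dissociated) that met the same rule give a comparison from cells that do not complete meiosis. Strain and genotype cannot be told apart in it. Mitochondrial UMIs were equal to 2.65 (library 5) to 10.9% (library 3) of autosomal UMIs in these barcodes, against 0.520 to 1.31% in WT libraries 3 to 11. The part of this in the X-linked share was not tested. None of these 1509 shared a barcode sequence with one of another Mlh3 library. Libraries 2 and 3 carry the same labelled age, and whether they came from 1 mouse is not given in the sources used here. The X-linked share of the barcodes was 1.15, 0.698 and 1.29% in libraries 1 to 3 and 0.224, 0.230 and 0.217% in libraries 4 to 6. The first 3 lay above every WT library, and the other 3 lay within the WT range. Libraries 1 to 3 came from mice labelled as aged 3 months 22 days, 8 months 30 days and 8 months 30 days, libraries 1 and 2 were read on a MiSeq, and libraries 4 to 6 came from mice aged 2 months 21 to 23 days, so labelled age divides the libraries in the same way. Its part in the difference was not tested. The mean difference from WT was 0.4656 points (exact two-sided permutation p = 0.00799, adjusted p = 0.0400). It was 0.325 (p = 0.0525, exact permutation test) with mechanically dissociated HiSeq libraries alone, which leave out Mlh3 libraries 1 and 2. With libraries 2 and 3 averaged as 1, an alternative added after seeing the data, it was 0.393 (p = 0.01998, exact permutation test).

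Expression within pachytene barcodes was compared between groups with the quasi-likelihood test of edgeR on the summed UMIs of 13 libraries, over 13226 genes with at least 5 UMIs. Levels in these comparisons are CPM scaled by TMM (normalised CPM), folds are log2 with their standard error, and p-values are adjusted by Benjamini-Hochberg over all genes tested. Levels given for the other barcodes are CPM without that scaling. The study describes the WT libraries as coming from separate animals and the labels give different ages for each pair of mutant libraries, so the spread behind the p-values holds that between mice and that between library preparations. Of the 21 pachytene markers outside the rule, 1 was higher (Tdrd9) and 1 lower (Hist1h1t) in Cul4a than in WT, beside 5.55% of all genes tested, and 0 were called in CNP, beside 0.711%, with median log2 differences of 0.11 and -0.01 among those of at least 50 CPM. Their summed share of UMIs was 3.46 and 3.48% in the Cul4a libraries, within the WT range of 3.25 to 3.67%, and 3.12 and 4.27% in the CNP libraries, of which the first lay below that range and the second above it. The CNP libraries lay on either side of WT in the same way for the energy genes (1.59 and 2.44% against 1.83 to 2.17%) and for the calmodulin and cell cycle genes (1.60 and 2.70% against 1.89 to 2.30%). Over all 3934 tested genes of at least 50 CPM the medians were 0.06 and -0.13, and they moved to -0.01 and -0.02 when the TMM factors were estimated over abundant genes alone. Small folds are to be read against that shift.

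In Cul4a, 734 genes were called different from WT, 5.55% of those tested: 611 higher, 4.62%, and 123 lower, 0.93%. With TMM factors over abundant genes the split was 469 higher and 170 lower, and with DESeq2 it was 54 higher and 77 lower. Each of the Cul4a sums held about as many UMIs as the 9 WT sums together, 205 of the 611 genes had at most 10 UMIs in the 9 WT libraries, and with every library thinned to 52193 UMIs only 11 genes were called higher and 5 lower. Without Cul4a library 1 or library 2 there were 116 and 212 calls in all. The libraries did not overlap for 425 of the 611 and 40 of the 123, and over all 13226 genes tested both Cul4a libraries lay above every WT library for 1119 and below every one for 96. Of these genes, 318 (52.0%) and 73 (59.3%) were called in the same direction in the other barcodes of the same libraries, where 10.9 and 6.05% of the 13197 genes tested in both were called higher and lower.

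Grtp1, which encodes a TBC domain protein, had the clearest loss. It stood at 282 normalised CPM at the lowest, 319.6 at the median and 367 at the highest WT library, 0 and 0 in Cul4a, and 287 and 476 in CNP. No Cul4a UMI was seen, against 390 in WT, which makes the gene at least 244-fold lower (floor of 3 UMIs over the Cul4a group, adjusted p = 6.04e-78, edgeR). The other barcodes had 0.836 and 1.05 CPM in Cul4a against 139 to 197 in WT. Grtp1 (chr8:13172022-13200620, minus strand, GENCODE vM21 on GRCm38) lies 24082 bases past the end of Cul4a (chr8:13105621-13147940, plus strand) and overlaps Lamp1 on the other strand, which was not called (0.19 ± 0.20). Of 14 tested genes within 500 kb of Cul4a, Grtp1 and Atp11a (0.89 ± 0.28 log2 higher, adjusted p = 0.0323, edgeR) were called, beside 5.55% of all genes tested. The call of Atp11a was lost without either Cul4a library (adjusted p = 0.165 and 0.495, edgeR) and without WT library 4, 5, 7, 9 or 11 (0.0506 to 0.0955), and that of Grtp1 in 0 of the 21 alternatives. A linked strain difference and an effect of the deletion cannot be told apart.

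Cul4a itself was not lower in the libraries labelled Cul4a, at 211 and 220 normalised CPM against 96.7 to 222 in WT (median 146). Drop-seq reads the 3' end, and where the deletion lies relative to that end is not given in the sources used here, so this does not check the genotype. Among the other genes of the ligase, Ddb1, its adaptor, stood at 194 and 221 against 100.3 to 173 in WT (0.62 ± 0.20, adjusted p = 0.0316, edgeR) and Rbx1, its ring finger subunit, at 402 and 374 against 97.6 to 325 (0.85 ± 0.19, adjusted p = 6.92e-04, edgeR). Both Cul4a libraries were above every WT library for these genes, and 2 of the 14 tested genes of the ligase were called higher and 0 lower, beside 4.62 and 0.93% of all genes tested. Without Cul4a library 1 neither was called (adjusted p = 0.234 and 0.129, edgeR), nor with DESeq2 (adjusted p = 0.152 and 0.0673), and Ddb1 was also lost without Cul4a library 2 (0.462), without WT library 4, 7, 8 or 11 (0.0551 to 0.0679) and with TMM factors over abundant genes (0.0688, edgeR).

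Other losses in Cul4a were smaller. Malat1, a nuclear noncoding RNA, stood at 363 and 317 normalised CPM against 435 to 1708 in WT (median 1143), with a fitted change of -1.64 ± 0.22 log2 (adjusted p = 2.24e-10, edgeR), and in the other barcodes the libraries overlapped, at 406 and 603 against 247 to 803. Dapp1, a signalling adaptor, stood at 2.49 and 0 against 13.6 to 70.3 (3 UMIs against 60), and Wdr16, a cilium gene, at 37.4 and 48.5 against 68.0 to 223 (fitted change -1.85 ± 0.23). Ubb, a polyubiquitin gene, stood at 1127 and 1087 against 1583 to 2868 (fitted change -0.82 ± 0.22), and Spag16, of the axoneme, at 116 and 124 against 197 to 369 (-1.07 ± 0.21). The mutant libraries were below every WT library for all of these genes. The call of Spag16 was lost without Cul4a library 1 (adjusted p = 0.0759, edgeR) and that of Ubb without library 1 or 2 (0.199 and 0.225, edgeR), while leaving out any single library kept those of Malat1, Dapp1 and Wdr16.

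Among the genes higher in Cul4a, Pfn1, which encodes the actin-binding protein profilin, stood at 447 and 454 normalised CPM against 46.2 to 152 in WT (median 84.6), higher by 2.29 ± 0.20 log2 (adjusted p = 1.08e-27, edgeR). It kept its call under each of the 21 alternatives run. Of the 10 strongest calls, Pfn1 was the only one annotated as protein-coding; the others are annotated as pseudogenes, whose reads cannot be told from those of their parents, and 132 of the 611 were pseudogenes, which were 731 of the 13226 tested. Rps13-ps1 was the extreme case, at 438 and 399 against 0 to 13.6 in WT (963 UMIs against 1) and at 247 and 218 in the other barcodes against at most 0.982. Hist1h2al, a histone H2A copy among them, had 99 UMIs in Cul4a and 0 in WT, at least 17.6-fold higher (floor of 3 UMIs over the WT group).

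Ribosomal protein genes were also higher in Cul4a. A list of them, made after the values were seen, had 38 of 82 higher and 1 lower, beside 4.62 and 0.93% of all genes tested, with a median log2 difference of 0.56 and 74 of 78 above 0 among those of at least 50 CPM, against 0.06 over all such genes. Without Cul4a library 1 there were 5 higher and 0 lower, without library 2 there were 9 and 1, and with DESeq2 there were 7 and 0, so the number of calls rests on both libraries and moves with the test and size factors of DESeq2, which changed together. With every library thinned to 52193 UMIs 0 of 78 were called, and with barcodes thinned to 500 UMIs there were 15 of 78 higher and 0 lower, so the count also moves with depth, in which Cul4a differed from WT. With TMM factors over abundant genes there were 33 higher and 2 lower. Reads of these genes and of their pseudogenes cannot be told apart.

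Genes of meiotic prophase were called higher in small numbers, each against a background of 4.62%. In the synaptonemal complex and cohesin list, whose median log2 difference was 0.38 among genes of at least 50 CPM against 0.06 over all, 3 of 13 were higher and 0 lower: Tex12 at 155 and 141 normalised CPM against 0 to 132 in WT (1.02 ± 0.21), Syce3 at 283 and 283 against 75.9 to 249 (0.86 ± 0.19) and Syce2 (0.65 ± 0.20), whose libraries overlapped. In the break and strand exchange list 3 of 15 were higher, Dmc1 (54 UMIs against 4), Meiob (1.09 ± 0.28) and Mnd1 (1.59 ± 0.48). In the piRNA list 2 of 19 were higher, Fkbp6 at 170.4 and 168 against 54.4 to 143 (0.81 ± 0.20) and Tdrd9 (0.62 ± 0.20), and 0 of the 13 crossover genes were called. The medians of these 3 lists were 0.07, 0.02 and -0.11. Of the silencing list 1 of 13 was higher, H2afx, at 313 and 265 against 84.6 to 260.2 (1.05 ± 0.20), and 1 was lower, Ubb. The summed share of this list, of which Ubb is a large part, was 0.240 and 0.242% in Cul4a and 0.238 and 0.226% in CNP. These lay below every WT library (0.265 to 0.442%), as did the mutant libraries in the other barcodes, and the sums were not tested. Tex12, Syce3, Fkbp6 and H2afx were not called without Cul4a library 1 (adjusted p = 0.118, 0.0897, 0.179 and 0.0677, edgeR) or with DESeq2 (adjusted p = 0.366, 0.167, 0.0996 and 0.0655), and Syce3 and Fkbp6 also not without library 2 (0.0745 and 0.129, edgeR). Without Cul4a library 1 the calls of Syce2, Dmc1, Meiob, Mnd1, Tdrd9 and Ubb were lost as well (adjusted p = 0.336, 0.0928, 0.0587, 0.2802, 0.338 and 0.199, edgeR), so that each of these 10 calls needed that library. Without library 2 those of Syce2, Meiob, Mnd1, Tdrd9 and Ubb were lost (0.265, 0.284, 0.160, 0.334 and 0.225, edgeR). Leaving out single WT libraries also lost Syce2 (libraries 6, 8, 9 and 11, adjusted p 0.0541 to 0.0615, edgeR), Mnd1 (4, 7 and 9, 0.0589 to 0.0723) and Tdrd9 (4, 5, 6, 7 and 11, 0.0541 to 0.1001). A call lost with 1 Cul4a library left does not show that the difference rests on the library left out.

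Markers of other cells were also called in the Cul4a pachytene barcodes, beside the 4.62% of all genes called higher. Of leptotene and zygotene markers 3 of 9 were higher (Dmc1 and Meiob, which are in the list of breaks too, and Prss50), of spermatogonia 2 of 5 (Uchl1 and Stra8), of Sertoli cells 3 of 11 (Defb36, Cst12 and Tmsb4x) and of Leydig cells 2 of 6 (Insl3 and Ptgds), with 0 lower in each. Without Cul4a library 1 the counts were 1, 1, 0 and 0, since Stra8, Defb36, Cst12, Tmsb4x, Insl3 and Ptgds lost their calls too (adjusted p = 0.403, 0.102, 0.274, 0.266, 0.929 and 0.492, edgeR). Without library 2 they were 2, 2, 2 and 1. DESeq2 gave no adjusted p for these 10 genes. The summed levels of these lists lay within the WT range except in Cul4a library 1 for Sertoli markers: 0.0353 and 0.0388% of UMIs in Cul4a against 0.0159 to 0.0404% in WT for leptotene and zygotene, 0.00771 and 0.00713% against 0.000962 to 0.00825% for spermatogonia, 0.0308 and 0.0247% against 0.0125 to 0.0295% for Sertoli cells, and 0.0122 and 0.00605% against 0.000508 to 0.0149% for Leydig cells. Macrophage and blood, telocyte, round spermatid and division lists had 0 calls, and the elongating spermatid list had 0 of 10 higher and 1 lower (Akap4, X-linked), a call lost without Cul4a library 2 (adjusted p = 0.175, edgeR).

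Leaving out the 50 barcodes with an X-linked share of at least 1% left 588 genes higher and 111 lower in Cul4a. It ended the calls of Dmc1 (adjusted p = 0.108, edgeR), Prss50 (0.0565), Stra8 (0.459) and Insl3 (0.0963), so that 1 leptotene and zygotene marker, 1 spermatogonia marker and 1 Leydig marker were still called. Tex12, Syce3 and Syce2 kept their calls, as did Meiob and Mnd1 of the list of breaks. An ended call does not show that the difference went away. The part of other cells in the prophase calls was not tested further.

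Dazl, an RNA-binding protein of germ cells, stood at 579 and 455 normalised CPM in Cul4a against 98.7 to 376 in WT (1.13 ± 0.19, adjusted p = 8.10e-07, edgeR), a call missed with DESeq2 (adjusted p = 0.0564). The energy list had 3 of 13 genes higher, Cox6b2, a testis subunit of cytochrome oxidase, at 2434 and 2282 against 488 to 1512 (1.00 ± 0.19), which kept its call under each of the 21 alternatives, Cyct, the testis cytochrome c, at 1249 and 1293 against 499 to 1034 (0.71 ± 0.19), and Cox7b2, another subunit of the oxidase (0.59 ± 0.19). The list of autosomal copies had 3 of 17 higher, Cox7b2 again, Rps4l (0.72 ± 0.19) and Rpl39l at 1228 and 1199 against 412 to 869.8 (0.84 ± 0.19). Without Cul4a library 1 the calls of Cyct, Cox7b2, Rps4l and Rpl39l were lost (adjusted p = 0.175, 0.347, 0.206 and 0.0981, edgeR), as they were without library 2 (0.194, 0.355, 0.149 and 0.0649, edgeR). Beside the 4.62% of all genes, 5 of 22 proteasome genes, 2 of 14 translation genes (Dazl and Celf1), 2 of 15 calmodulin and cell cycle genes, 2 of 13 apoptosis genes tested, 1 of 7 mitochondrial genes and 2 of 13 histone genes were higher, with a median of 0.30 for the proteasome, 0.21 for energy and 0.13 for the copies. Of the 5 proteasome genes 1 was called without Cul4a library 1, Psmb7, and 0 without library 2, and with DESeq2 the other 4 were not called and Psmb7 had no adjusted p. The 2 of the calmodulin list, the 1 mitochondrial gene and Celf1 were lost without either Cul4a library. So were Pmaip1 of the apoptosis list (adjusted p = 0.0586 and 0.462, edgeR) and H1fx of the histone list (0.329 and 0.424, edgeR), the latter also without WT library 3, 4, 5, 7, 8, 10 or 11 (0.0549 to 0.158). Hspa8 of the apoptosis list was lost without library 2 (0.363, edgeR), and Hist1h2al was kept. The histone list also had 1 lower, the testis linker histone gene Hist1h1t, whose libraries overlapped (fitted change -1.43 ± 0.39) and whose call was lost without Cul4a library 1 (adjusted p = 0.488, edgeR), and the chaperone and cilium lists had 0 calls. Though none was called, 3 of the 15 cilium genes lay above 0, with a median log2 difference of -0.23 against 0.06 over all genes of at least 50 CPM. X-linked genes were called higher for 21 of 327 tested, close to the 4.62% of all genes, and lower for 2.

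In CNP, 94 genes were called different from WT, 0.711% of those tested: 5 higher, 0.0378%, and 89 lower, 0.673%. The libraries did not overlap for 4 of the 5 and 84 of the 89, where over all 13226 genes tested 287 lay above and 415 below every WT library in both CNP libraries, and 760 genes had an unadjusted p under 0.05. The 5 were Nkiras2, H2afx, Dnajc7, Tex101 and Pdia6, the last named after its value was seen. Tex101 is one of the genes that chose the barcodes, whose summed share was 0.609 and 0.491% in the shallower CNP libraries against 0.372 to 0.490% in WT, so its call is no result. Pdia6 was not called without CNP library 1 (adjusted p = 0.896, edgeR). In the other barcodes of the same libraries, 2 of the 5 (40.0%) and 67 of the 89 (75.3%) were called in the same direction, where 0.0530 and 1.45% of the 13197 genes tested in both were called higher and lower.

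Nkiras2, an inhibitor of NF-kappa-B signalling, stood at 414 and 407 normalised CPM in CNP against 81.5 to 223 in WT (median 159), higher by 1.39 ± 0.28 log2 (adjusted p = 1.42e-04, edgeR). Dnajc7, a cochaperone, stood at 319 and 302 against 95.1 to 200.04 (median 141), higher by 1.11 ± 0.30 (adjusted p = 0.0337, edgeR). Both CNP libraries were above every WT library for both genes. The call of Nkiras2 was lost in 1 of the 21 alternatives, with thinned barcodes (adjusted p = 0.810, edgeR). That of Dnajc7 was lost in 7 of them, among them without CNP library 1 (adjusted p = 0.412, edgeR) or 2 (0.332) and without WT library 5, 8 or 10 (0.0501 to 0.0781). The other barcodes showed the same, at 376 and 391 against 100 to 141 for Nkiras2 and 500 and 361 against 162 to 234 for Dnajc7. Both genes lie beside Cnp (chr11:100574904-100591729, plus strand): Dnajc7 (chr11:100582818-100620168, minus strand) overlaps it and Nkiras2 (chr11:100619244-100627607, plus strand) lies 27515 bases past its end. They were the only 2 of 21 tested genes within 500 kb that were called, beside 0.711% of all genes tested.

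Ttc25, which ends 2336 bases before Cnp, stood at 335 and 523 against 163 to 332 in WT, above every WT library, but was not called (0.81 ± 0.27, adjusted p = 0.232, edgeR). Cnp had 0 UMIs in the CNP pachytene barcodes and at most 10.8 normalised CPM in a WT library. Whether reads were counted by strand is not stated, so UMIs of overlapping genes cannot be told apart, and the extent of the transgene is not given in the sources used here.

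H2afx stood at 319 and 302 normalised CPM in CNP against 84.6 to 260.2 in WT (1.14 ± 0.31, adjusted p = 0.0282, edgeR), above every WT library, as in Cul4a, with which it shares the WT libraries. The H2afx call in CNP was lost in 9 of the 21 alternatives, with adjusted p up to 0.670 (edgeR), among them without CNP library 1 (0.368) or 2 (0.286) and without WT library 8, 9 or 11 (0.0790 to 0.0884).

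The genes lower in CNP were mostly of the ribosome. A list of ribosomal protein genes, made after the values were seen, had 0 of 82 higher and 55 lower, beside 0.0378 and 0.673% of all genes tested, with a median log2 difference of -2.39 among those of at least 50 CPM (-2.33 with genes at 0 UMIs set to their bound) against -0.13 over all such genes. Without CNP library 1 there were 42 lower and without library 2 there were 53. With every library thinned to 52193 UMIs there were 51 of 78 lower, and with barcodes thinned to 500 UMIs 0 of 78, where 1 gene in all was called in CNP. Rps7 stood at 434 to 734 normalised CPM in WT (median 536) and at 0 and 11.6 in CNP, 1 UMI in all. Rpl7a stood at 304 to 533 in WT and at 0 and 0 in CNP, at least 19.6-fold lower, and Rps12 at 173 to 843 in WT and 0 and 0 in CNP, at least 21.1-fold lower (floor of 3 UMIs over the CNP group). All CNP libraries were below all WT libraries for these genes.

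The same genes were near 0 in the other CNP barcodes, at 15.9 and 13.8 CPM against 292 to 677 for Rps7, 0 and 0 against 104 to 263 for Rpl7a, and 0 and 2.75 against 163 to 611 for Rps12. Not all ribosomal protein genes were so low: in the pachytene barcodes Rpl14 stood at 255 and 290 normalised CPM in CNP against 357 to 625 in WT and was not called. Why these genes lack UMIs in the CNP libraries was not tested.

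Genes outside the ribosome were lower in CNP as well. Hsp90aa1, the inducible HSP90, stood at 430.3 and 616 normalised CPM against 2585 to 5137 in WT (median 3264), with a fitted change of -2.62 ± 0.29 log2 (adjusted p = 2.89e-16, edgeR), and was called in each of the 21 alternatives. Cks2, a small partner of cyclin-dependent kinases needed in meiosis, stood at 15.9 and 23.2 against 152 to 408 (fitted change -3.48 ± 0.60), H2afz, a histone variant, at 95.6 and 116 against 303 to 530.0 (-1.85 ± 0.37), and Hmgb2, a chromatin protein, at 112 and 116 against 222 to 652 (-1.57 ± 0.37). Of the translation list 2 of 14 were lower, beside 0.673% of all genes, Pabpc1, the poly(A)-binding protein, at 3363 and 4217 against 6461 to 9282 (-1.01 ± 0.25) and Ybx1 at 1626 and 2486 against 3506 to 4287 (-0.89 ± 0.24). All were below every WT library. Without CNP library 1 the calls of Hmgb2, Pabpc1 and Ybx1 were lost (adjusted p = 0.135, 0.134 and 0.690, edgeR), without library 2 that of Hmgb2 (0.2198), and that of Ybx1 also without WT library 10 (0.0535) or either Cul4a library (0.0593 and 0.122), whose spread enters the fit, and that of Pabpc1 without Cul4a library 2 (0.0506).

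In the other lists, beside 0.0378% of all genes called higher and 0.673% lower, the proteasome had 0 of 22 higher and 2 lower (Psma3 and Psma4), and the chaperones (Hsp90aa1), histones (H2afz), calmodulin and cell cycle genes (Cks2), silencing genes (Ubb, with H2afx higher) and mitochondrial genes (mt-Co1) had 1 lower each. Without CNP library 1 Psma4, Ubb and mt-Co1 lost their calls (adjusted p = 0.291, 0.344 and 0.0946, edgeR), and without library 2 Psma3, Psma4 and mt-Co1 did (0.502, 0.491 and 0.741). The lists of the piRNA pathway, synaptonemal complex, breaks, crossover, autosomal copies, energy, cilium, Cullin 4 ligase, apoptosis and of every other cell type had 0 calls in CNP, with a median log2 difference of -0.17 for the synaptonemal complex and -0.03 for the piRNA pathway. The CNP sums were small, 52193 and 84916 UMIs, and a difference of the size seen for Rbx1 or Dazl in Cul4a may not be detectable there.

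**Figure D5:**
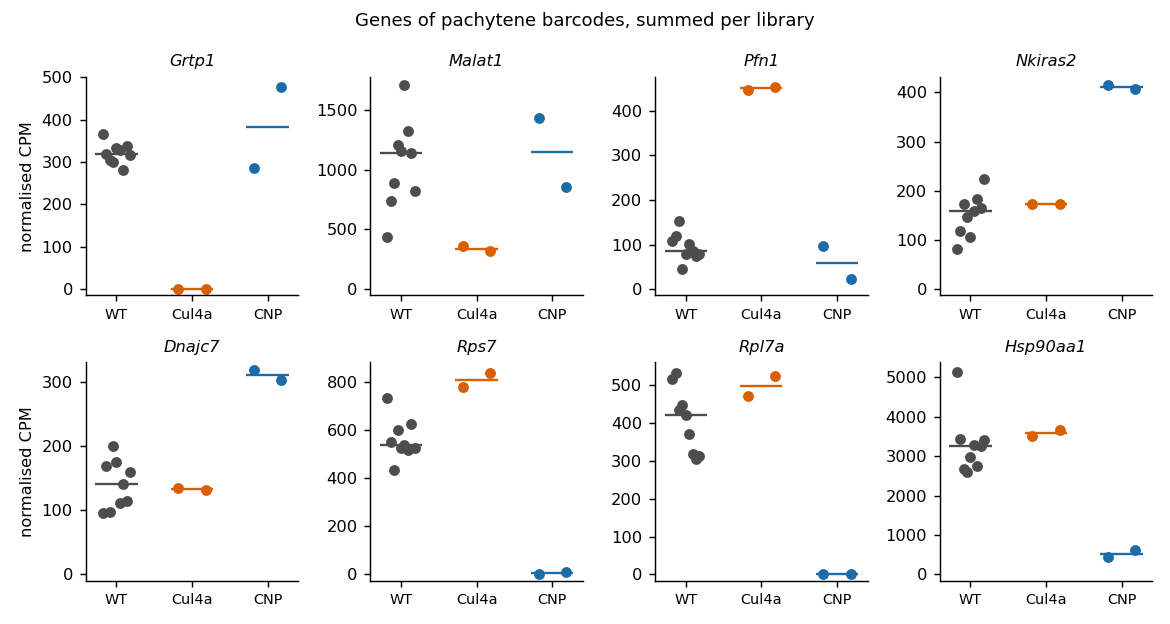
Normalised CPM of 8 genes in the summed pachytene barcodes of each library, 9 WT (grey), 2 Cul4a (orange) and 2 CNP (blue), with a line at the group median and axes that start near 0. Grtp1 is at 0 in both Cul4a libraries, Nkiras2 and Dnajc7 are above every WT library in CNP, and Rps7, Rpl7a and Hsp90aa1 are below every WT library in CNP.

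Set against each other directly, Cul4a and CNP pachytene barcodes differed in 192 genes (1.45%), 175 higher in Cul4a (1.32% of those tested) and 17 lower (0.129%). With DESeq2 the split was 95 higher and 42 lower. There were 113 calls with the replicate number as a block and 46 with barcodes thinned to 500 UMIs. The libraries did not overlap for 174 of the 175 and for all 17, but with 2 libraries against 2 this was so for 6070 and 1173 of all 13226 genes tested. Ribosomal protein genes made up 70 of the 175, with a median log2 difference of 2.91 among those of at least 50 CPM. Among the genes lower in Cul4a were Grtp1 (at least 303-fold lower), Malat1 (fitted change -1.74 ± 0.28), Nkiras2 (-1.25 ± 0.29), Dnajc7 (-1.22 ± 0.32) and Ttc25 (-1.34 ± 0.30). The calls of Nkiras2 and Dnajc7 were lost without any 1 of the 4 mutant libraries (adjusted p 0.0531 to 0.0631 and 0.114 to 0.188, edgeR), and that of Ttc25 without CNP library 2 (0.430). Aldh1l1 was higher in CNP, at 128 and 92.9 normalised CPM against 5.82 and 5.49 in Cul4a, but WT library 5 reached 173 while the WT median was 0, so its level differed between WT libraries as much. By list, the synaptonemal complex had 1 of 13 higher in Cul4a, autosomal copies 2 of 17, energy 1 of 13, chaperones 1 of 16, histones 1 of 13, translation 1 of 14, calmodulin and cell cycle 2 of 15, proteasome 3 of 22 and apoptosis 1 of 13, while cilium, round spermatid and mitochondrial lists had 1 lower each and the remaining lists had 0.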

How the data were processed

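The deposited files hold counts of UMIs per gene and barcode in each library, made by the authors with the Drop-seq tools from reads aligned with STAR 2.5.3a to mm10 (GRCm38), as the methods and the submitters' processing notes state. Whether counting used strand is not given in the sources used here. The 25 libraries were read as deposited, with no doublet removal, and barcodes with at least 500 UMIs entered. Libraries were grouped by the labels. Pachytene barcodes were taken by the stated rule and their UMIs summed per library. WT libraries 1 and 2, with fewer than 10 such barcodes, were left out of all fits. Depth, given in the report, limits the precision.

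Groups were compared with the quasi-likelihood test of edgeR 4.0.16 (limma 3.58.1, R 4.3.3), with TMM scaling over genes of at least 5 UMIs, all 13 libraries in 1 fit and Benjamini-Hochberg adjustment at 0.05. Shares and X-linked UMIs were compared by exact two-sided permutation over libraries. On simulated counts TMM factors over all tested genes moved the folds of unchanged genes with depth, so factors over the genes kept by filterByExpr of edgeR were added as an alternative after the data were seen. Other alternatives were DESeq2 1.42.0, filterByExpr, no filter, thinning, leaving out libraries and a replicate block. Cul4a and CNP libraries share the numbers 1 and 2, but same-numbered libraries did not deviate together (r = -0.083 over 3934 genes), so the numbers do not pair them.

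Named genes were the rule's genes, the 20 with the highest CPM ratio to the other barcodes (at least 50 CPM, 20 CPM added to both), from each list those called and up to 6 more by mean CPM, up to 10 higher and 10 lower per comparison by adjusted p with no overlap between libraries, the disrupted genes, and up to 10 X-linked genes by mean CPM. Some named genes are not reported here. The members and lists were chosen with earlier results of these data known. Symbols matching GENCODE vM21 held 95.3% of UMIs, older symbols 3.49%, and 1.19% matched none.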

Additional observations from a re-analysis of the deposited data

Results flagged for a closer look

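Among the 9 WT libraries, 32 sums over gene lists and other measures were tested for a library far from the rest, and 4 had one, where chance gives about 1 in 20. The 32 include the X-linked share over the Mlh3 libraries, which was not among the 4. WT library 5 had the lowest cilium share of pachytene UMIs (1.49%), the highest elongating spermatid share (0.390%) and the highest macrophage and blood share (0.00354%), the last resting on very few UMIs. WT library 4 had the highest Leydig share (0.0149%).

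Of 97 named genes tested in the same way, 21 had such a library, in normalised CPM. WT library 3, the only one of the 9 read on a MiSeq, was the highest for 13 of them: Hsp90aa1 (5137), Ubb (2868), Rps13 (1318), Rps27a (1101), Fau (1046.5), Rps25 (775), Hmgb2 (652), Psma3 (353), Gm1821 (231), Psmb5 (204), Gm9385 (27.2), and at 13.6 each Defb36 and Rps13-ps1. This library also had the smallest sum of the 9, 72331 UMIs, so the values of Gm9385, Defb36 and Rps13-ps1 rest on very few UMIs. WT library 5 was the highest for Rpl10l (705), Aldh1l1 (173), Prdx4 (119) and Gyltl1b (32.5) and the lowest for Toporsl (97.6). The highest value of PISD was in WT library 9 (585), of Ptgds in WT library 4 (68.9) and of Stra8 in WT library 7 (43.9).

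The difference from WT itself differed between Cul4a and CNP for 192 genes, by the direct contrast of the 2 groups in edgeR. In the sorted primary spermatocytes, which entered no comparison between groups, 29.4% of barcodes with at least 500 UMIs met the rule.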

How the results depend on the processing

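The share of pachytene barcodes kept its direction in Cul4a and CNP under all alternatives. Without 1 library it differed from WT by 3.38 to 6.12 points in Cul4a and by 7.01 to 15.2 in CNP; leaving out a mutant library left 1 against 11, where the smallest exact permutation p is 0.167. Over all barcodes the CNP difference was 1.16 points. The X-linked difference ranged from 0.0493 to 0.0957 points in Cul4a without 1 library and from -0.0592 to 0.0819 in CNP, where barcodes thinned to 500 UMIs gave -0.0399; in neither group was it called. In Mlh3 it was 0.334 to 0.549 without 1 library, 0.325 in mechanical HiSeq libraries and 0.597 with barcodes thinned to 500 UMIs. The 734 calls between Cul4a and WT became 131 with DESeq2, 325 with filterByExpr, 63 with thinned barcodes, 16 with library sums thinned to 52193 UMIs (chosen after seeing the data) and 116 to 860 without 1 library. With TMM factors over abundant genes they were 639, 73.4% of them higher against 83.2%. The 94 calls between CNP and WT became 1 with thinned barcodes and 65 to 103 without 1 library, and 12 higher and 65 lower with DESeq2. The 192 calls between Cul4a and CNP became 46 with thinned barcodes, 107 with thinned library sums and 112 to 209 without 1 library (112 without CNP library 1); with the replicate number as a block there were 113, and DESeq2 gave 95 higher and 42 lower. Neither group shares a number with the WT libraries of the fit (3 to 11), so no other paired fit was made. Of the values of 74, 27 and 50 named results under the alternatives (Cul4a against WT, CNP against WT, Cul4a against CNP), 1164, 488 and 933 kept their status, 321, 74 and 142 lost their call, and 29, 2 and 10 had no adjusted p in DESeq2 (the fit of mechanical HiSeq libraries is that without WT library 3 and is counted once). The named results include the disrupted genes Cul4a and Cnp. Where these were not called, a value that stayed uncalled counts as kept. The values that changed sign were Tdrd9 (-0.16) and PISD (0.26) in Cul4a against WT and Klhl10 (2.63) in Cul4a against CNP with thinned barcodes, and Psmb2 (-0.47) in Cul4a against WT with thinned library sums. Causes of these changes were not tested apart from the fewer UMIs that thinning leaves.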
